A study of Homo sapiens with 12 samples.

Results

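The CD1 lipid antigen presentation family was followed as 5 genes, CD1A, CD1B, CD1C, CD1D and CD1E, out of the 58735 genes counted by RNA-sequencing in THP1 cells, an established human monocytic leukemia cell line. The members were taken as a gene family, and CD1D was singled out because it was lower in every co-culture than in mono-culture. Its differences from mono-culture are therefore given as a description with no test, as are those of the other members, and only the differences between the co-cultures were tested. The study asked how senescent endothelial cells (ECs) act on monocytes and whether epigallocatechin-3-gallate (EGCG), a green tea catechin, alters this. All THP1 cells were wild type and spent 24 h in endothelial medium, followed by 100 ng/ml LPS, a bacterial endotoxin, for 2 h, so that no library shows the unstimulated state. Mono-culture had no ECs (replicates 1, 2 and 3), and the co-cultures had, beneath a porous filter, control ECs given DMSO (replicates 1, 2 and 3), senECs made senescent with etoposide, a DNA-damaging drug (replicates 1, 2 and 5), or senECs given etoposide and then EGCG (replicates 1, 2 and 5). The ECs were human umbilical vein endothelial cells, and etoposide stands in for natural ageing. Neither the labels nor the methods say that libraries of a group came from separate cultures, so p-values measure only the spread between these libraries, which may be technical.

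CD1 proteins resemble MHC class I molecules, pair with beta-2-microglobulin and hold lipids in place of peptides for T cells to recognize. CD1A, CD1B and CD1C form group 1 and present lipids, mycobacterial ones included, to diverse T cells, mainly from dendritic cells. CD1D forms group 2 and presents glycolipids to natural killer T (NKT) cells, and it is carried by monocytes, macrophages and B cells. CD1E stays inside the cell, where it helps load lipids onto the other CD1 proteins.

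The 5 genes lie together on chromosome 1 over 177.6 kb (GENCODE release 29, GRCh38), and none overlaps another annotated gene. From one end to the other they are CD1D (chr1:158179947-158184896), CD1A (chr1:158254137-158258269), CD1C (chr1:158289786-158293630), CD1B (chr1:158327951-158331531) and CD1E (chr1:158353696-158357553). CD1B is on the minus strand and the others are on the plus strand. The values are read counts per gene, and how reads matching several CD1 genes were treated is not given in the sources used here.

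The upstream sequence is shown for CD1D, the abundant member, and for CD1C, the only other member with a count in every library, since the 2 are neighbours in 1 cluster with very different levels. RefSeq (build GRCh38.p14) gives 250 bases before each listed start. CD1D has 2 such windows, chr1:158179697-158179946 for the upstream start and chr1:158180645-158180894 for the downstream start. CD1C has chr1:158289673-158289922, and all 3 windows are on the plus strand. Capitals mark AGGAAG, a sequence bound by Ets factors such as SPI1 and ELF1 and called the Ets core here. They also mark AGGTCA, a nuclear receptor half-site, which reads TGACCT on the other strand. Both were searched on both strands, as was the Sp1 box GGGCGG, and none of these motifs overlaps another in the windows shown.
CD1D upstream start: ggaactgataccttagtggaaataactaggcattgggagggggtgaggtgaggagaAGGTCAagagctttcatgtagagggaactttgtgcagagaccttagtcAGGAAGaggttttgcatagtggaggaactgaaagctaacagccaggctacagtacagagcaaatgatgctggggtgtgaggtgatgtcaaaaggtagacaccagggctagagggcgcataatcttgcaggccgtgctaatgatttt
CD1D downstream start: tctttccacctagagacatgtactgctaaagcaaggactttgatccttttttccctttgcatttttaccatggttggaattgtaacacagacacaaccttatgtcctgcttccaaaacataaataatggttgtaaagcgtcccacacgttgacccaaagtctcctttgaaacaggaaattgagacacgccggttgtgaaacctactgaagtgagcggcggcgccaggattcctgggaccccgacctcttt
CD1C: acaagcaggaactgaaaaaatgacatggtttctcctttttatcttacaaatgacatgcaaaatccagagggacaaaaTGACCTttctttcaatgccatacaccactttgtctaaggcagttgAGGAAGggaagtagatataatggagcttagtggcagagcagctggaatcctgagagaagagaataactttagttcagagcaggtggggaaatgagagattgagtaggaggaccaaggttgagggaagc
The upstream CD1D window and the CD1C window each held 1 Ets core and 1 half-site, and none of the 3 held the Sp1 box. Of all 35116 RefSeq windows of this length, 28.71% held the Ets core, 12.08% the half-site and 42.64% the Sp1 box, so these letters are common. The downstream CD1D window held none of these exact sequences, and shorter or variant sites were not searched. It had 8 CG dinucleotides against 2 in the upstream CD1D window, 0 in CD1C and a median of 11.0 over all windows. RefSeq windows were found for 4 of the 5 members, 6 windows in all, and CD1B had no entry.

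CD1D was an abundant transcript in these cells, and the rest of the family was close to the limit of detection. On the scale per gene length, the mean CD1D level over the 12 libraries was 109 FPKM, rank 310 of 34036 genes with a count and a length, and between 78.2 and 158 FPKM by library. CD1C followed at a mean of 0.732 FPKM, CD1B at 0.106 FPKM, CD1A at 0.0338 FPKM and CD1E at 0.00761 FPKM. CD1D supplied between 98.41% and 99.82% of all reads counted on the 5 genes in a library. This order held CD1D apart from every other member in every library, whereas the library ranges of CD1A, CD1B and CD1E overlapped. The range of CD1C (0.201 to 1.87 FPKM) also overlapped that of CD1B (0 to 0.433 FPKM).

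CD1D counts ran from 3171 to 6596 per library. As CPM (counts scaled to the library size, with sizes adjusted by the trimmed mean of M values, TMM), CD1D was 325, 355 and 312 in mono-culture replicates 1, 2 and 3. With control ECs it was 212, 230 and 176 CPM in replicates 1, 2 and 3. With senECs it was 221, 234 and 208 CPM in replicates 1, 2 and 5, and with EGCG-treated senECs 227, 242 and 193 CPM in replicates 1, 2 and 5. The lowest mono-culture library therefore stood above the highest co-culture library, while the 3 co-cultures overlapped one another. Of the 25873 genes tested, 1.64% had all 9 co-culture libraries below all 3 mono-culture libraries, and CD1D was chosen for this pattern. In each of the 4 groups replicate 2 was the highest and replicate 3 or 5 the lowest.

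**Figure D1:**
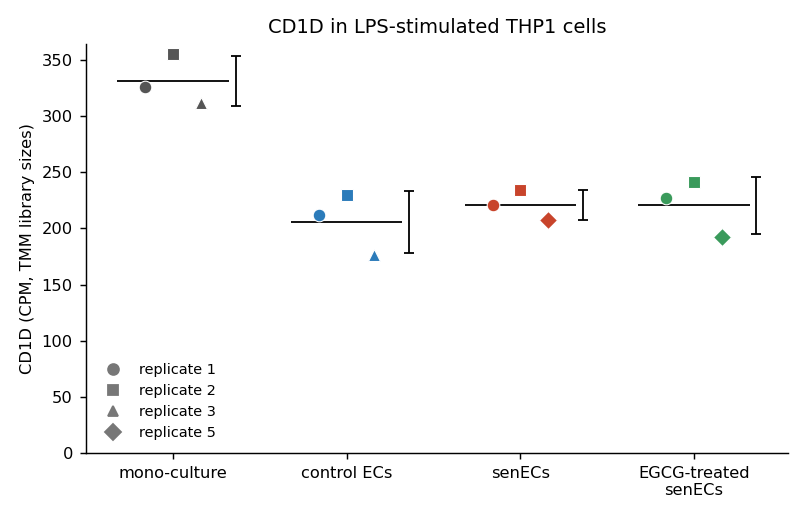
CD1D in each library, in CPM on the vertical axis, by culture group on the horizontal axis; point shapes give the replicate number, lines the group mean and bars ± 1 SD of 3 libraries. The mono-culture libraries lie between 312 and 355 CPM and the 9 co-culture libraries between 176 and 242 CPM.

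The group means of CD1D were 331 ± 22.2 CPM in mono-culture (SD, n = 3), 206 ± 27.4 CPM with control ECs, 221 ± 13.3 CPM in the senEC and 221 ± 25.2 CPM in the EGCG-treated senEC co-culture. Against mono-culture the CD1D level was thus 0.623 times as high with control ECs, 0.668 times with senECs and 0.667 times with EGCG-treated senECs. The log2 differences from edgeR were -0.68, -0.58 and -0.58, each with a standard error of 0.11. These 3 values share the mono-culture libraries. Paired by replicate number, the ratio to mono-culture was 0.651, 0.648 and 0.565 with control ECs, 0.68 and 0.66 with senECs and 0.699 and 0.681 with EGCG-treated senECs. In bulk RNA, fewer cells carrying a transcript and less transcript per cell cannot be told apart.

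Between the co-cultures no CD1 gene differed past the threshold, set at 0.05 for the Benjamini-Hochberg adjusted p of edgeR's quasi-likelihood test on 25873 genes. Over the whole table this test called 0 genes (0%) in each of these 3 comparisons, and at an unadjusted p under 0.05 it found 6.61%, 2.22% and 4.55% of the genes but 0 of the 4 members tested. DESeq2 also called 0 genes in each. For CD1D, senECs against control ECs gave a log2 difference of 0.10 (95% interval -0.13 to 0.34, edgeR adjusted p = 0.864). EGCG-treated senECs against senECs gave 0.00 for CD1D (-0.24 to 0.23, edgeR adjusted p = 1), and EGCG-treated senECs against control ECs gave 0.10 (-0.14 to 0.33, edgeR adjusted p = 0.979). The intervals leave room for a CD1D difference between co-cultures smaller than the separation from mono-culture, and they do not show equal levels.

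**Figure D2:**
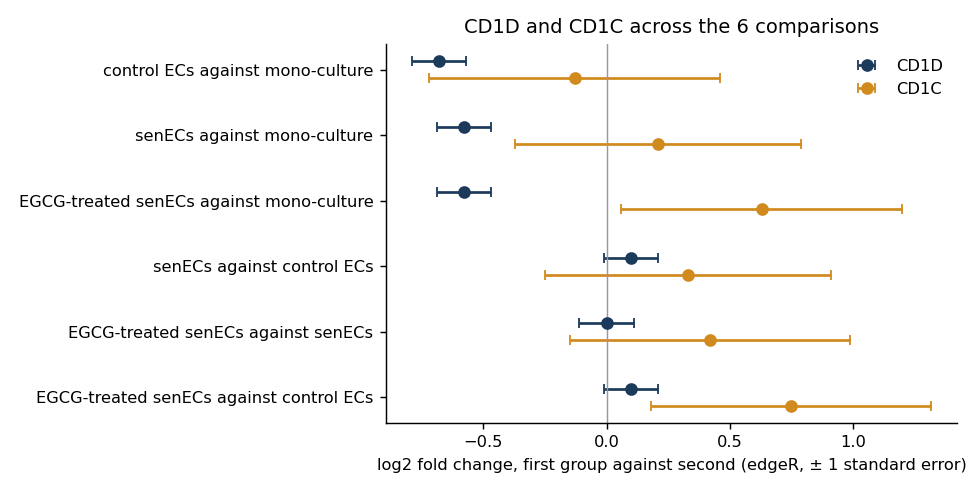
Log2 fold change of CD1D and CD1C on the horizontal axis for the 6 comparisons listed on the vertical axis, first group against second, with ± 1 standard error from edgeR. CD1D lies at -0.68, -0.58 and -0.58 against mono-culture and within 0.10 of zero between co-cultures, while every CD1C bar is wider than any CD1D bar.

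CD1C, the group 1 member with the most reads, had between 6 and 50 counts per library. Its level was 0.995, 0.807 and 0.936 CPM in mono-culture replicates 1, 2 and 3 and 0.288, 1.05 and 1.17 CPM with control ECs. With senECs it was 0.619, 0.868 and 1.69 CPM in replicates 1, 2 and 5, and with EGCG-treated senECs 0.487, 1.02 and 2.68 CPM. The groups overlapped throughout: replicate 1 was the lowest library of each co-culture and replicate 3 or 5 the highest, with the mono-culture libraries in between. Against mono-culture the CD1C log2 difference was -0.13 (SE 0.59) with control ECs, 0.21 (SE 0.58) with senECs and 0.63 (SE 0.57) with EGCG-treated senECs. Each turned in sign without a single library, to 0.28 without control EC replicate 1, to -0.30 without senEC replicate 5 and to -0.28 when replicate 5 of the EGCG-treated senECs was left out. Between co-cultures CD1C differed by 0.33 (95% interval -0.88 to 1.55, edgeR adjusted p = 0.92) for senECs against control ECs. It differed by 0.42 (-0.76 to 1.60, edgeR adjusted p = 1) for EGCG-treated senECs against senECs and by 0.75 (-0.44 to 1.95, edgeR adjusted p = 0.979) for EGCG-treated senECs against control ECs. Without replicate 5 of the EGCG-treated senECs the last 2 became -0.48 and -0.15, and without replicate 5 of the senECs the first became -0.17, so that single libraries set the sign. Without replicate 1 of the control ECs the first also changed sign, to -0.08.

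CD1B, which can hold the longest lipids of the family, had 31 counts over the 12 libraries, at most 10 in any library and 0 in 5 libraries. Its highest library was senEC replicate 5 with 10 counts, followed by EGCG-treated senEC replicate 5 with 7 and mono-culture replicate 1 with 6. CD1A, the Langerhans cell member, had 14 counts in all, with 6 in senEC replicate 5, 4 in mono-culture replicate 1, 2 in EGCG-treated senEC replicate 2 and 1 each in replicate 3 of mono-culture and of control ECs. The remaining 7 libraries had none. CD1E had 4 counts in all, with 2 in control EC replicate 1, 1 in senEC replicate 1 and 1 in EGCG-treated senEC replicate 5, and fell below the minimum sum of 10 counts, which the other 4 members passed. A count of 0 allows a level of up to 0.132 to 0.191 CPM by library, for counting error only. No difference in CD1A or CD1B was detectable at this depth (edgeR adjusted p between 0.792 and 1 among the co-cultures).

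**Figure D3:**
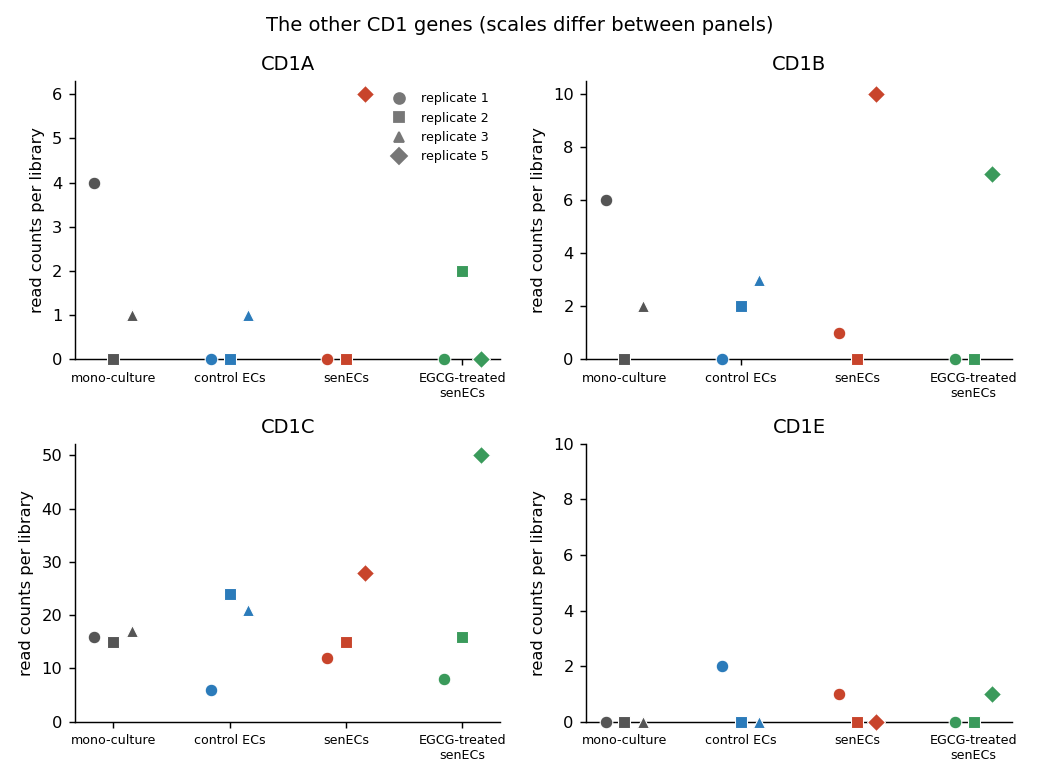
Read counts per library of CD1A, CD1B, CD1C and CD1E on the vertical axes, whose scales differ between panels, by culture group; shapes give the replicate number. CD1C reaches 50 counts and CD1B 10, and CD1E has at most 2 counts in any library.

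CD1 proteins need partners, and 79 genes of the CD1 pathway were grouped into 8 lists by role, of which 77 passed the minimum of 10 counts. In none of the 6 comparisons did edgeR call any of these 77 genes. Over the whole table, 0.143% were called with control ECs against mono-culture, 0.309% with senECs and 0.213% with EGCG-treated senECs. At an unadjusted p under 0.05 in edgeR, 10, 7 and 7 of the 77 genes passed in those 3 comparisons, where 6.52%, 11% and 8.58% of all genes did. Among the co-cultures 9, 1 and 6 of the 77 passed, where 6.61%, 2.22% and 4.55% of all genes did. DESeq2 called 2 of the 77, SPI1 and FAR1, both with senECs against mono-culture, where it called 1.34% of all genes tested. Of the 77 genes, 4, 4 and 3 had fold changes at or below that of CD1D in the 3 co-cultures against mono-culture, led by MSR1, IL12A and MRC1, and each of these had at most 137 counts over the 12 libraries. Of the 64 genes with a mean above 1 CPM, 0 did, and their median log2 differences were -0.03, 0.04 and 0.05. CD1D was chosen as lower in these same comparisons and the pathway genes were not, so its place below them is a description only.

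**Figure D4:**
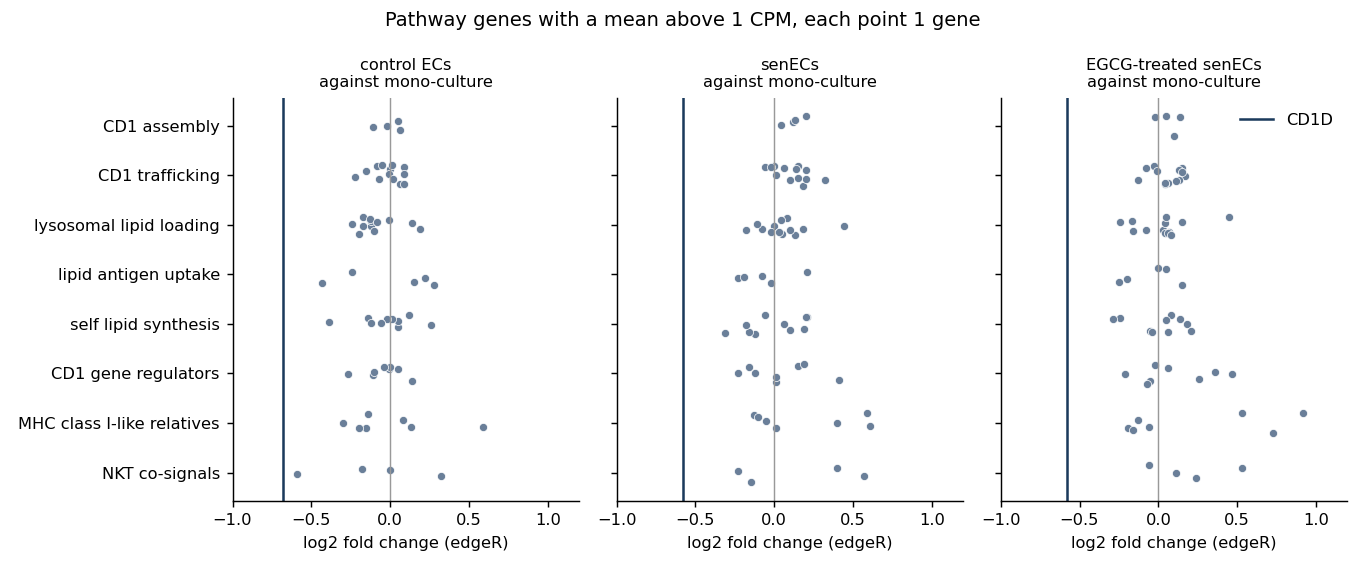
Log2 fold changes against mono-culture on the horizontal axes, 1 panel for each co-culture, of the pathway genes with a mean above 1 CPM, arranged by role on the vertical axis; the dark line marks CD1D. All 64 points lie to the right of the CD1D line in each panel, and CD1D was chosen for being lower in these comparisons.

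The assembly genes were among the most abundant. CALR and CANX, chaperones of the endoplasmic reticulum, stood at means of 525 and 209 FPKM, PDIA3, a thiol oxidoreductase that works with them, at 150 FPKM, and B2M, the light chain shared by all CD1 and MHC class I proteins, at 211 FPKM. MTTP, the transfer protein that lipidates CD1D, had 22 counts in all. None of the 5 was called in any comparison, and their median log2 differences from mono-culture were -0.02, 0.12 and 0.10. B2M averaged 1280 CPM in mono-culture, 1190 CPM with control ECs, 1390 CPM in the senEC and 1270 CPM in the EGCG-treated senEC co-culture.

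Set against B2M within each library, the CD1D groups met at their edges. There were 32.3, 24.3 and 22.5 CD1D reads per 100 B2M reads in mono-culture replicates 1, 2 and 3 and 20.3, 19.2 and 13.3 with control ECs. The values were 21.4, 17.2 and 11.6 with senECs and 22.7, 16.5 and 14.3 with EGCG-treated senECs in replicates 1, 2 and 5. EGCG-treated senEC replicate 1 thus lay just above mono-culture replicate 3, while the other 8 co-culture libraries were below mono-culture. Against MR1, the related molecule that presents vitamin B metabolites, the groups stayed apart, with 238 to 298 CD1D reads per 100 MR1 reads in mono-culture and 152 to 220 in the co-cultures.

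CD1 proteins recycle through endosomes with the AP2 and AP3 adaptor complexes, and all 13 trafficking genes had a mean above 1 CPM. AP2S1 (86.6 FPKM), AP2M1 (61.0 FPKM), ARF6, a small GTPase of endosomal recycling (47.1 FPKM), and AP3D1 (46.3 FPKM) had the highest means. CD74, the invariant chain that also guides CD1D to endosomes, averaged 17.4 FPKM. The 13 genes had median log2 differences of 0.00, 0.14 and 0.06 from mono-culture, with a range over the 3 comparisons from -0.22 to 0.32.

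Lysosomal loading genes followed. PSAP, the precursor of the saposins that move lipids onto CD1D, averaged 301 FPKM, and the proteases CTSL and CTSS 38.0 and 36.4 FPKM. The median log2 difference of the 13 genes was -0.12 with control ECs and 0.04 in each of the other co-cultures. CTSL averaged 74.1 CPM in mono-culture, 84.5 CPM with control ECs, 100 CPM in the senEC and 101 CPM in the EGCG-treated senEC co-culture, log2 differences of 0.19, 0.44 and 0.45 that did not pass the edgeR threshold (adjusted p = 0.911, 0.24 and 0.301).

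Lipid uptake was represented most strongly by SCARB1, a receptor for high-density lipoprotein, at 40.3 FPKM and by CD36, a fatty acid and oxidized lipid receptor, at 21.0 FPKM. APOE, an apolipoprotein that carries lipid antigens into cells, averaged 7.42 FPKM. MSR1 and MRC1, scavenger and mannose receptors, had 65 and 23 counts in all.

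Among the 10 genes that make self lipids, GNPAT (58.8 FPKM) and FAR1 (25.0 FPKM) act in the ether lipid pathway, CERS2 (27.9 FPKM) makes ceramides and A4GALT (23.9 FPKM) makes the glycolipid Gb3. FAR1 averaged 210 CPM in mono-culture, 201 CPM with control ECs, 169 CPM in the senEC and 171 CPM in the EGCG-treated senEC co-culture. The FAR1 log2 differences were -0.31 with senECs and -0.29 with EGCG-treated senECs (edgeR adjusted p = 0.232 and 0.342). With DESeq2 the first of these was called (adjusted p = 0.0449). A4GALT averaged 92.8 CPM in mono-culture and 70.8 CPM with control ECs, a log2 difference of -0.39 (SE 0.12, edgeR adjusted p = 0.407). A fit with the replicate number as a block called the A4GALT difference (-0.39, edgeR adjusted p = 0.00394), where it called 1.81% of all genes.

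Of the 9 regulator genes, SPI1 (PU.1), an Ets factor of the myeloid lineage, and IRF8, which works with it, were the most abundant at 139 and 129 FPKM. ELF1, another Ets factor, averaged 34.7 FPKM, and PPARG, a lipid-sensing nuclear receptor that raises CD1D in dendritic cells, 20.6 FPKM. The SPI1 means were 245 CPM in mono-culture, 269 CPM with control ECs, 325 CPM in the senEC and 313 CPM in the EGCG-treated senEC co-culture. The SPI1 log2 differences were 0.14, 0.41 and 0.36 (edgeR adjusted p = 0.924, 0.135 and 0.276), and DESeq2 called the difference with senECs (adjusted p = 0.0199). The IRF8 group means ran from 628 CPM with senECs to 682 CPM in mono-culture. Single libraries of IRF8 ran from 572 CPM with senECs to 775 CPM with EGCG-treated senECs.

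The MHC class I-like relatives were led by FCGRT, the neonatal Fc receptor, at 70.9 FPKM. MR1 followed at 12.5 FPKM and ULBP2 and MICB, ligands of the NKG2D receptor, at 3.84 and 3.24 FPKM. MR1 averaged 126 CPM in mono-culture, 114 CPM with control ECs, 115 CPM in the senEC and 110 CPM in the EGCG-treated senEC co-culture, log2 differences of -0.14, -0.13 and -0.19 (SE 0.09 each, edgeR adjusted p = 0.874, 0.629 and 0.579). FCGRT averaged 320 CPM in mono-culture, 260 CPM with control ECs, 310 CPM in the senEC and 293 CPM in the EGCG-treated senEC co-culture.

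Molecules that act beside CD1D on NKT cells were ICAM1, an adhesion ligand (63.3 FPKM), CD40, a costimulatory receptor (20.7 FPKM), the cytokine IL18 (3.79 FPKM) and IL12B, a subunit of IL-12 (0.809 FPKM). ICAM1 averaged 181 CPM in mono-culture, 226 CPM with control ECs, 269 CPM in the senEC and 261 CPM in the EGCG-treated senEC co-culture. The ICAM1 log2 difference was 0.57 (SE 0.34) with senECs and 0.53 (SE 0.34) with EGCG-treated senECs, and neither passed the edgeR threshold (adjusted p = 0.564 and 0.692). With a library left out these values ran from 0.12 (without senEC replicate 5) to 0.93 and from 0.11 (without EGCG-treated senEC replicate 5) to 0.88, both highest without mono-culture replicate 3. IL18 averaged 11.5 CPM in mono-culture and 7.63 CPM with control ECs, a log2 difference of -0.59 (SE 0.27, edgeR adjusted p = 0.754). A fit with the replicate number as a block called the IL18 difference (-0.58, edgeR adjusted p = 0.0234), where it called 1.81% of all genes.

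Few of the surrounding genes had reads. Of 26 further protein-coding genes within 1 Mb of CD1D, 8 passed the minimum of 10 counts and 0 were called in any of the 6 comparisons. Only MNDA, a nuclear antigen of myeloid cells (122 CPM), and IFI16, a DNA sensor (9.35 CPM), had a mean above 1 CPM. MNDA, the other abundant gene of this stretch, averaged 109 CPM in mono-culture, 119 CPM with control ECs, 133 CPM in the senEC and 126 CPM in the EGCG-treated senEC co-culture. Its log2 differences of 0.12, 0.28 and 0.20 lay on the other side of zero from those of CD1D and did not pass the edgeR threshold (adjusted p = 0.968, 0.468 and 0.717). The neighbours were split in direction, with 5, 4 and 5 of the 8 lower than in mono-culture and 3, 4 and 3 higher.

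The genes whose levels ran most like CD1D over the 12 libraries were chosen by Pearson's r on log2(CPM + 2) among 10831 genes with a mean of at least 5 CPM. They were DNASE2, a lysosomal nuclease (r = 0.960), ANXA4, a membrane-binding annexin (0.935), PAQR8, a progesterone receptor of the membrane (0.935), BATF2, a leucine zipper factor (0.925), and the non-coding RNA LINC00205 (0.921). The most opposite were CHST11, a chondroitin sulfotransferase (-0.935), PVR, an adhesion molecule seen by natural killer cells (-0.919), PARP9 (-0.919), PREP, a prolyl peptidase (-0.918), and ACER3, an alkaline ceramidase (-0.916). The points share 4 groups and the replicate numbers, so that these values describe the split between mono-culture and co-culture. DNASE2 averaged 26.2 ± 2.65 CPM in mono-culture (SD, n = 3), 11.1 ± 2.76 CPM with control ECs, 14.5 ± 3.65 CPM in the senEC and 13.7 ± 1.10 CPM in the EGCG-treated senEC co-culture. CHST11 averaged 119 ± 6.08 CPM, 183 ± 14.2 CPM, 181 ± 15.1 CPM and 183 ± 26.1 CPM in the same order. With 1 library left out, between 3 and 8 of the 10 genes were again among the 10 chosen, the fewest without control EC replicate 3, and with Spearman's rho 4 were.

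**Figure D5:**
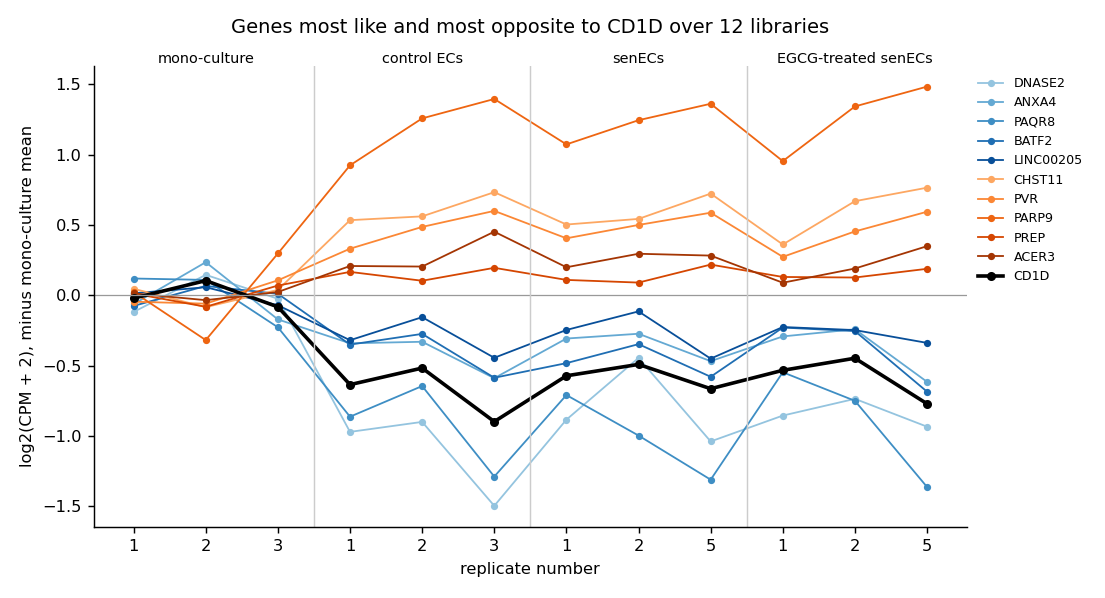
Log2(CPM + 2) of CD1D (black), the 5 genes most like it (blue) and the 5 most opposite (orange) on the vertical axis, minus each gene's mono-culture mean, for the 12 libraries on the horizontal axis; lines only join the points of a gene. The like genes lie below zero in all 9 co-culture libraries and the opposite genes above it.

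The libraries held 15439836 to 22092600 counts each, with the lowest and the highest total in mono-culture and control EC libraries. Replicates differed by more than sampling noise (the lowest and highest chi-square per degree of freedom among 12 pairs were 9.23 and 33.66), so that none was counted as a copy. The monocyte markers were uneven in level. CD14, LYZ, ITGAM, CSF1R and CD33 were expressed, as was FCGR1A at a mean of 38.6 CPM. MPO averaged 4.25 CPM, FCGR3A 1.82 CPM and CD68 0.384 CPM, and the cause of these low values was not tested. The summed level of the 10 monocyte markers was 1130 to 1330 CPM in mono-culture and 1310 to 1890 CPM in the co-cultures. Most of it was ELANE, a neutrophil granule protease, at group means of 863, 1000, 1130 and 1060 CPM in the order of the groups above. Of the 10, 1 was called, CD14, with senECs against mono-culture (log2 difference 2.09, edgeR adjusted p = 0.0363, and 0.0793 in a fit of only the 6 libraries compared). The 14 dendritic cell markers, chosen because dendritic cells are the usual carriers of CD1A, CD1B and CD1C, summed to 408 to 430 CPM in mono-culture and 321 to 382 CPM in the co-cultures, most of it FLT3, with FCER1A at 0 in every library and 0 of 12 tested genes called. The list did not move as one, since CLEC10A averaged 1.99 CPM in mono-culture and 3.17 to 3.58 CPM by co-culture, and 3, 5 and 5 of the 12 had fold changes above zero. The 14 endothelial markers summed to 21.8 to 27.9 CPM in mono-culture and 25.2 to 34.6 CPM in the co-cultures. EGFL7 made up most of this sum at a mean of 21.9 CPM, before ESAM (1.92 CPM), VWF (1.07 CPM) and ERG (0.818 CPM). CLEC14A and MMRN1 were at 0 and CDH5 had 2 counts in all. ERG averaged 0.406 CPM in mono-culture, 1.18 CPM beside control ECs, 0.96 CPM in the senEC and 0.729 CPM in the EGCG-treated senEC co-culture. The first ERG difference, 1.51 in log2, did not pass the edgeR threshold (adjusted p = 0.647). Of the 9 endothelial markers tested, 3, 4 and 7 were higher than in mono-culture and 6, 5 and 2 lower. The dendritic cell sum was set mainly by 1 gene, FLT3, at 323 CPM in mono-culture and 251 to 280 CPM by co-culture. This sum was lower in all 9 co-culture libraries, as CD1D was, a pattern that 1.64% of the single genes tested also had. The ranges of the monocyte and endothelial sums met or overlapped between mono-culture and co-culture. The part of these markers in the CD1D difference was not tested.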

How the data were processed

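RNA of 12 THP1 samples was sequenced. The values deposited by the authors are raw counts of reads for each gene, named by symbol, and the submitters' processing notes name HISAT2 and hg38, while the counting program and annotation are not given in the sources used here. All 57169 distinct symbols occur in GENCODE release 29, used for positions and lengths. A further 4 columns match no described sample and were not used. Groups came from the sample labels.

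From the counts, edgeR 4.0.16 (R 4.3.3; quasi-likelihood test, TMM, 1 model of 12 libraries with the group as its only term) tested the 25873 genes with a sum of at least 10 counts, called at a Benjamini-Hochberg adjusted p of 0.05. Each standard error is the log2 fold change over the root of the F statistic, and intervals are at 95%. FPKM divides CPM by merged exon length in kb. The pathway genes named were those called and, per list, up to 4 with the highest mean FPKM. Others named for a DESeq2 call, a low count or a role beside the CD1 genes were picked with values seen. Pathway genes not named enter the counts, and results on a few items are not reported here. The pattern genes and the neighbours within 1 Mb followed fixed cut-offs. The members and lists were chosen with earlier results of these data known. edgeR was tested on simulated data. Alternatives were DESeq2 1.42.0, its size factors, total counts only, every gene with a count, edgeR's own filter, the 6 libraries compared, a replicate block and each library left out. Figures used Python 3.11.15 and matplotlib 3.10.9. The count of each library gives the precision, and floors of 3 counts cover counting error only.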

Additional observations from a re-analysis of the deposited data

How the results depend on the processing

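CD1D was chosen for being lower in every co-culture, so the direction of its difference from mono-culture was set by that choice. That it stayed the same under every alternative is no further support. The log2 difference ran between -0.69 and -0.67 with control ECs, -0.65 and -0.57 with senECs and -0.63 and -0.58 with EGCG-treated senECs. With a library left out it ran between -0.77 and -0.58, -0.63 and -0.53, and -0.66 and -0.50. Between co-cultures no member was called under any alternative. Leaving out a library moved CD1D between 0.00 and 0.19 for senECs against control ECs, between -0.07 and 0.09 for EGCG-treated against untreated senECs and between 0.00 and 0.19 when EGCG-treated senECs were set against control ECs, and both comparisons with control ECs came to 0.00 without control EC replicate 3, that of the EGCG-treated senECs with its sign turned before rounding. CD1C, at 6 to 50 counts, ran from -0.17 to 0.63, from -0.48 to 0.92 and from -0.15 to 1.15 in those 3 comparisons, and the cause was not tested.

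The pathway genes called, 0 in each comparison, became 2 with DESeq2 (senECs against mono-culture). The fit of every gene with a count called 3 pathway genes with senECs against mono-culture (CTSL, SPI1 and ICAM1). It called 2 with EGCG-treated senECs against mono-culture (CTSL and ICAM1) and 1 with senECs against control ECs. In these comparisons it called 1.69%, 1.08% and 0.328% of all 34767 genes. With a library left out the pathway genes called ranged from 0 to 1 with senECs against mono-culture (SPI1, without senEC replicate 1) and were 0 in the other 5 comparisons. Over all genes, the 37, 80 and 55 calls against mono-culture became 120, 347 and 230 with DESeq2, 223, 588 and 377 with every gene with a count, and 52, 20 and 35 with only the 6 libraries compared. With a library left out their lowest and highest numbers were 11 and 44, 19 and 255, and 12 and 100. The low ends came from leaving out mono-culture replicate 2 (11 and 12) or senEC replicate 2 (19), and the 255 and 100 from leaving out senEC replicates 1 and 5. Among the co-cultures, every gene with a count gave 114, 14 and 43 calls where there were 0. The call of CD14 was lost with only the 6 libraries compared (edgeR adjusted p = 0.0793), with edgeR's own filter (0.0783) and in 7 of the 12 fits with a library left out. Over all 12 of these fits its log2 difference ran from 1.44 to 2.45.

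The replicate numbers share only a number: of 14 same-numbered pairs, 10 had correlated deviations over 0.1 (0.027 to 0.497), and 9 of 12 libraries correlated best with their own number, a hint from the data and not the design. The replicate block called 3, 2 and 1 pathway genes in the comparisons with mono-culture, in the order used above, and 2 with senECs against control ECs. Those against mono-culture were A4GALT, ICAM1 and IL18 with control ECs, SPI1 and ICAM1 with senECs and ICAM1 with EGCG-treated senECs. Over all genes it called 469, 709 and 424 against mono-culture (1.81%, 2.74% and 1.64%). Among the co-cultures it called 153, 13 and 34 (0.591%, 0.0502% and 0.131%). ICAM1 was called in all 3 comparisons with mono-culture (log2 differences 0.33, 0.48 and 0.45, edgeR adjusted p = 0.02, 0.00027 and 0.00147). Under this block CD1C changed to -0.07 for senECs against control ECs. Spearman's rho chose 4 of the 10 genes named as most like or opposite to CD1D, and 3 to 8 were shared with a library left out.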
